A study of Homo sapiens with 12 samples.

Results

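The genes described here are 7 receptor tyrosine kinases and 1 docking protein that sit upstream of the kinase AKT: ERBB2, ERBB3, EGFR, INSR, IGF1R, MET, FGFR1 and the adaptor IRS1. They were chosen by gene name from 58735 rows of gene counts, and all 8 of 8 were among the 16646 genes with enough counts to test. The cells were C4.2B, a castration-resistant prostate cancer line derived from LNCaP, in every arm. The 4 arms compared had 3 libraries each: DMSO vehicle, ipatasertib at 0.25 μM (an ATP-competitive AKT inhibitor, AKTi), tazemetostat at 1 μM (an inhibitor of the histone methyltransferase EZH2, EZH2i), and both agents (combination). Tazemetostat, or vehicle in its place, was given for 6 days before day 0. On day 0 the medium was changed to 10% charcoal-stripped serum, which is poor in steroid hormones. Tazemetostat was then given again and ipatasertib was added, each where used, and RNA was taken 24 hours later. The model is 1 cell line at 1 time point, each library came from its own culture plate, and polyadenylated RNA was read, not receptor protein or its phosphorylation.

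Receptor tyrosine kinases bind growth factors outside the cell, dimerize, and phosphorylate tyrosines that recruit PI3K, whose lipid product activates AKT. Active AKT phosphorylates the FOXO transcription factors and holds them out of the nucleus, and AKT signaling through mTORC1 and S6 kinase lowers IRS1. Because FOXO factors are known to raise the transcription of receptor genes such as ERBB3, INSR and IGF1R, inhibition of AKT is known in other tumor cells to raise receptor expression, a loop usually called feedback relief. EZH2 is the catalytic subunit of Polycomb repressive complex 2, which methylates histone H3 lysine 27 and holds genes silent. The comparisons asked how the RNA of the 8 genes stood with either inhibitor alone and with both.

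The upstream sequences of 4 of the genes are shown: the insulin and IGF axis of INSR, IGF1R and IRS1, which rose with AKTi and further with the combination, and EGFR, which moved little. They are examples, and ERBB2 also rose with AKTi and further with the combination. Each is the stretch of 250 bases immediately before the gene start in RefSeq (GRCh38.p14), written 5′ to 3′ on the strand of the gene, and no annotated exon falls in any of these windows. The table gave windows for 6 of the 8 genes, and ERBB3 and FGFR1 are named only. The ERBB2 window lies wholly in annotated exons and a second EGFR window lies partly in one, so these are not printed, nor is that of MET. Capitals mark GGGCGG, the GC box, and TGTTT, the short core of a forkhead site, each on either strand, so that CCGCCC and AAACA are capitals too. The windows are IRS1 at chr2:226799821-226800070 on the minus strand, INSR at chr19:7294415-7294664 on the minus strand, IGF1R at chr15:98648289-98648538 on the plus strand and EGFR at chr7:55018767-55019016 on the plus strand.
IRS1: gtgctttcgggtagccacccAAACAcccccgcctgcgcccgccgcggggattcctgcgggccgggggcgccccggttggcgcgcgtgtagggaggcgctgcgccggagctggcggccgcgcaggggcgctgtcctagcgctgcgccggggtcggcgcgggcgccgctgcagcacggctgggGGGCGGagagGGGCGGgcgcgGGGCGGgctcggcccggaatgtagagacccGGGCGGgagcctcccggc
INSR: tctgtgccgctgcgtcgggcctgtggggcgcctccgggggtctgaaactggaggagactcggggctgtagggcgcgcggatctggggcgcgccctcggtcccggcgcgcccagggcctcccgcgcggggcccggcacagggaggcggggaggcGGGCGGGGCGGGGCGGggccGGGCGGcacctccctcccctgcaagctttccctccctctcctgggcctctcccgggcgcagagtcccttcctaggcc
IGF1R: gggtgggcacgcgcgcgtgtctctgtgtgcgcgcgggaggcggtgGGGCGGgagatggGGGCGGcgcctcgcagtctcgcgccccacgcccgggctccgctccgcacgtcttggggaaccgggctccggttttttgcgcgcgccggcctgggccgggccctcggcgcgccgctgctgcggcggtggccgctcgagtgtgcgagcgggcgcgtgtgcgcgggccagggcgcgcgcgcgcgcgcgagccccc
EGFR: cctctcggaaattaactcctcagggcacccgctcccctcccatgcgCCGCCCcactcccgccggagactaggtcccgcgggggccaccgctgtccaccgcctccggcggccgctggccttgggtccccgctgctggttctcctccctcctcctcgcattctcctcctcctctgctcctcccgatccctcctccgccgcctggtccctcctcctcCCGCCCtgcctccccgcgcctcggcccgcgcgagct

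All of these windows were rich in G and C, at 80.8% for IRS1, 78.4% for INSR, 81.2% for IGF1R and 73.6% for EGFR, against a median of 58% over 35116 such windows of the genome. The observed number of CG pairs over that expected from base content was 0.977, 0.732, 1.18 and 0.881 in the same order, against a median of 0.558. GC boxes were found 4 times in IRS1, 4 times in INSR, where 3 of them share end bases in 1 run, and 2 times each in IGF1R and EGFR. A GC box was present in 42.6% of all windows. TGTTT on either strand was present in 40.4% of all windows, and among the 4 printed here it occurred once, on the reverse strand of IRS1, 230 bases before the start. The longer FOXO core TGTTTAC, which contains TGTTT, was present in 2.98% of all windows and was not in these letters, nor was the E-box CACGTG, present in 6.34%. Of the windows not printed, ERBB2 had 65.6% G and C and none of these motifs, MET had 68.4% and 2 GC boxes, and the second EGFR window (chr7:55109589-55109838, plus strand) had 38.8% and 2 matches of TGTTT. These matches describe letters only. The deposited rows place the INSR and IRS1 starts 380 and 61 bases inside those of GENCODE 44, which abut the windows.

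The total count ran from 14133755 to 22276417 per library. Levels are given as CPM, the usual count per library total, after TMM, which scales libraries by the bulk of their genes, and changes come from edgeR's quasi-likelihood test with Benjamini-Hochberg adjustment over all tested genes at an adjusted p under 0.05. Fold changes are relative to the other genes: the median log2 change of all tested genes lay between -0.049 and 0.062 with TMM, but moved to 0.17 (EZH2i against DMSO) and 0.26 (combination against DMSO) when libraries were scaled by size only. With that scaling 6630 genes were higher and 4193 lower with EZH2i, against 5421 and 5249 with TMM, and 7574 and 4749 with the combination, against 6320 and 5866. In bulk RNA a change in a gene's RNA per cell and a change in the share of cells that express it cannot be told apart. All 10 luminal prostate markers were expressed, with a summed level of 4365 to 4529 CPM in DMSO, 7012 to 7086 with AKTi, 7322 to 7670 with EZH2i and 9873 to 10050 with the combination. Of 15 markers of stromal, immune, endothelial and basal cells, 5 were high enough to test, and their summed level was 8.87 to 13.5 CPM in DMSO, 11.9 to 12.5 with AKTi, 25.4 to 27.6 with EZH2i and 18.7 to 22.3 with the combination, with 3 to 8 of the 15 at 0 in all libraries of an arm. CD3E and KRT5 were at 0 in all 12, the endothelial CDH5 and the basal TP63 had 0 or 1 count, and COL1A1 (5.67 CPM in DMSO, 16.8 with EZH2i) and VWF (2.58 and 5.96) made up most of the sum. The luminal sum stood above DMSO in every treated arm and the other sum with EZH2i and the combination, whereas with AKTi the latter lay inside the DMSO range. Their part in the results below was not tested.

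With AKT inhibition alone, 6 of the 8 genes rose, 1 fell and FGFR1 did not pass the test. IGF1R, IRS1 and ERBB2 had the largest increases, ERBB3 and INSR rose about equally, EGFR moved little, and MET, present at very low counts, fell. Over all tested genes 20.6% were called higher and 21.9% lower in this comparison. The median log2 fold change of the 8 was 0.54, against 0.0070 for all tested genes. With EZH2 inhibition alone 5 rose, 1 fell and 2 were not called, where 32.6% of all genes were called higher and 31.5% lower, and the median of the 8 was 0.42. With the combination 5 rose, 0 fell and 3 were not called, where 38.0% of all genes were called higher and 35.2% lower, and the median of the 8 was 1.21. The 3 comparisons share the DMSO libraries.

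**Figure D1:**
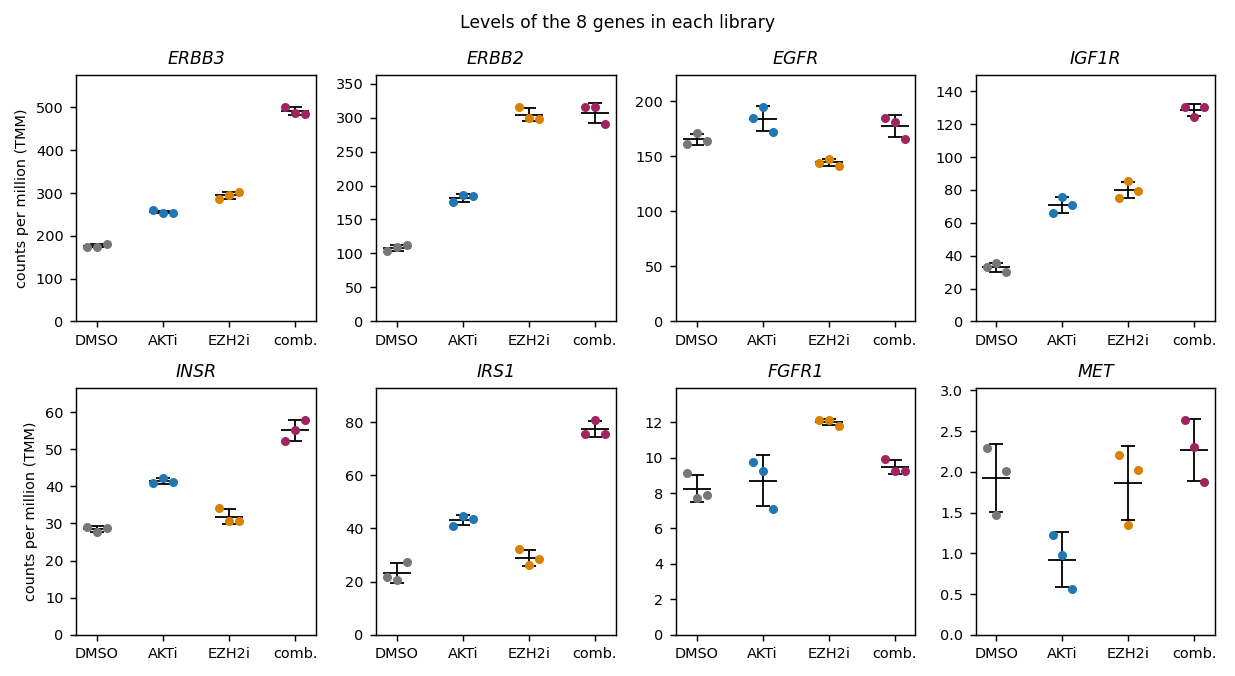
Level of each of the 8 genes in every library, in TMM-scaled CPM on linear axes that start at 0, with 3 points per arm and bars for the mean and SD. ERBB3, IGF1R, INSR and IRS1 stand highest in the combination, whereas ERBB2 is at 304 CPM with EZH2i and 307 CPM with the combination, and MET is below 3 CPM in every library.

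ERBB3 is the ERBB family member whose own kinase is weak and which, once phosphorylated by a partner, binds PI3K most directly. ERBB3 (ENSG00000065361, chromosome 12, 56076799 to 56103505, plus strand) was at 175, 175 and 181 CPM in DMSO, 260, 254 and 254 with AKTi, 285, 295 and 303 with EZH2i, and 502, 486 and 485 with the combination. The arms did not overlap, and the order DMSO, AKTi, EZH2i, combination held in every library. AKTi raised ERBB3 1.45-fold (log2 fold change 0.53, SE 0.051, edgeR adjusted p = 8.2e-11) and EZH2i raised it 1.66-fold (0.74, SE 0.051, adjusted p = 3.0e-15). The combination stood 2.78-fold above DMSO (1.47, SE 0.051, adjusted p = 1.3e-24). It was also 1.92-fold above AKTi (adjusted p = 1.7e-18) and 1.67-fold above EZH2i (adjusted p = 4.1e-15).

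ERBB2 (HER2) has no known ligand and is the preferred dimer partner of the other ERBB receptors. ERBB2 (ENSG00000141736, chromosome 17, 39687914 to 39730426, plus strand) was at 103, 109 and 112 CPM in DMSO, 176, 186 and 185 with AKTi, 316, 299 and 299 with EZH2i, and 315, 315 and 290 with the combination. The EZH2i and combination libraries overlapped, and both stood above AKTi, which stood above DMSO. AKTi raised ERBB2 1.68-fold (log2 fold change 0.75, SE 0.056, edgeR adjusted p = 1.7e-13), and EZH2i raised it 2.81-fold (1.49, SE 0.056, adjusted p = 5.7e-23). The combination was 2.83-fold above DMSO (adjusted p = 1.0e-23), and its difference from EZH2i was 0.01 on the log2 scale with a 95% interval of -0.096 to 0.12 (adjusted p = 0.89). The ERBB2 locus overlaps MIEN1 and PGAP3 on the opposite strand, with 649 to 1177 and 208 to 502 counts per library, and the strand setting of the counting is not given in the sources used here.

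EGFR, the founding member of the family and receptor of EGF and TGFα, had the smallest changes with AKTi and with the combination among the genes above 10 CPM. EGFR (ENSG00000146648, chromosome 7, 55019021 to 55211628, plus strand) was at 161, 171 and 164 CPM in DMSO, 185, 195 and 172 with AKTi, 144, 148 and 141 with EZH2i, and 185, 181 and 166 with the combination. The EZH2i libraries were the lowest 3 of the 12, the DMSO and combination libraries overlapped, and the AKTi libraries lay just above DMSO. AKTi raised EGFR 1.11-fold (log2 fold change 0.15, SE 0.057, edgeR adjusted p = 0.028), a call that was lost in 7 of 19 alternative settings. EZH2i lowered it to 0.873 of DMSO (-0.20, SE 0.057, adjusted p = 0.0031), and this call was lost when libraries were scaled by size only (-0.05, adjusted p = 0.43). The combination did not differ from DMSO past the threshold (0.10, interval -0.014 to 0.22, adjusted p = 0.11), although it was called higher in 4 other settings, up to 0.298 with scaling by library size only. It was 1.23-fold above EZH2i (adjusted p = 4.2e-05).

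The insulin and IGF receptors are paired chains that signal through IRS proteins, which carry many tyrosines for PI3K to dock on. IGF1R (ENSG00000140443, chromosome 15, 98648539 to 98964530, plus strand), the receptor of IGF-1 and IGF-2, was at 33.1, 35.3 and 30.3 CPM in DMSO, 66.0, 75.5 and 70.8 with AKTi, 75.3, 85.4 and 79.2 with EZH2i, and 131, 124 and 130 with the combination. All treated libraries stood above DMSO, the combination stood above both single agents, and the single agents overlapped. IGF1R had the largest AKTi increase of the 8 genes, 2.16-fold (log2 fold change 1.11, SE 0.073, edgeR adjusted p = 4.0e-15), and rose 2.44-fold with EZH2i (1.29, SE 0.071, adjusted p = 5.5e-18). In the combination it was 3.93-fold above DMSO (1.97, SE 0.070, adjusted p = 3.2e-24), 1.82-fold above AKTi (adjusted p = 4.8e-14) and 1.61-fold above EZH2i (adjusted p = 3.3e-11).

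INSR (ENSG00000171105, chromosome 19, 7112255 to 7294034, minus strand), the insulin receptor, was at 29.1, 27.7 and 28.8 CPM in DMSO, 40.8, 42.4 and 41.2 with AKTi, 34.1, 30.7 and 30.6 with EZH2i, and 52.3, 55.1 and 57.9 with the combination. The arms did not overlap, although the gap between DMSO and EZH2i was small. AKTi raised INSR 1.45-fold (log2 fold change 0.54, SE 0.078, edgeR adjusted p = 5.2e-07). EZH2i did not pass the threshold (0.15, interval -0.0052 to 0.31, adjusted p = 0.085), and was called higher in 3 other settings, among them scaling by library size only. The combination was 1.93-fold above DMSO (0.95, SE 0.076, adjusted p = 8.1e-14), 1.33-fold above AKTi (adjusted p = 9.5e-06) and 1.73-fold above EZH2i (adjusted p = 2.7e-11).

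IRS1 (ENSG00000169047, chromosome 2, 226731317 to 226799759, minus strand), the docking protein that links these receptors to PI3K, was at 21.7, 20.7 and 27.5 CPM in DMSO, 41.1, 44.8 and 43.4 with AKTi, 32.1, 26.2 and 28.4 with EZH2i, and 75.5, 80.8 and 75.7 with the combination. The AKTi and combination libraries stood clear of all others, whereas DMSO and EZH2i overlapped through DMSO library C and EZH2i library B. AKTi raised IRS1 1.83-fold (log2 fold change 0.87, SE 0.091, edgeR adjusted p = 5.6e-10). The EZH2i increase was 1.23-fold (0.30, SE 0.093, adjusted p = 0.0056) and was lost without DMSO library B (0.17) or EZH2i library A (0.20). In the combination IRS1 was 3.29-fold above DMSO (1.72, SE 0.088, adjusted p = 1.6e-19), 1.79-fold above AKTi (adjusted p = 3.7e-11) and 2.68-fold above EZH2i (adjusted p = 1.3e-16).

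MET, the receptor of hepatocyte growth factor, was the scarcest of the 8. MET (ENSG00000105976, chromosome 7, 116672390 to 116798386, plus strand) had 34, 20 and 42 counts in DMSO, 17, 14 and 8 with AKTi, 33, 23 and 44 with EZH2i, and 52, 40 and 31 with the combination, or 0.556 to 2.64 CPM. The AKTi libraries were the lowest 3 of the 12 and the other arms overlapped each other. MET fell with AKTi to 0.477 of DMSO (log2 fold change -1.07, SE 0.36, edgeR adjusted p = 0.015), and this call was lost without DMSO library A or without AKTi library C. The combination was 2.47-fold above AKTi (1.30, SE 0.35, adjusted p = 0.0015) and did not differ from DMSO past the threshold (0.23, interval -0.40 to 0.87, adjusted p = 0.50). At 8 to 52 counts a library, MET differences inside these intervals were not detectable at this depth.

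FGFR1 (ENSG00000077782, chromosome 8, 38400215 to 38468834, minus strand), a fibroblast growth factor receptor, was at 9.16, 7.74 and 7.86 CPM in DMSO, 9.77, 9.25 and 7.09 with AKTi, 12.1, 12.1 and 11.8 with EZH2i, and 9.94, 9.22 and 9.24 with the combination. The EZH2i libraries were the highest 3 of the 12, and the AKTi libraries overlapped both DMSO and the combination. EZH2i raised FGFR1 1.46-fold (log2 fold change 0.54, SE 0.14, edgeR adjusted p = 8.0e-04), whereas its difference with AKTi was 0.08 (interval -0.22 to 0.37, adjusted p = 0.71). The combination was lower than EZH2i (-0.34, SE 0.13, adjusted p = 0.036). This call was lost in 8 of 19 alternative settings, among them DESeq2 and scaling by library size only. The combination was not called against DMSO (0.20, adjusted p = 0.20), but was called higher there with scaling by library size only (0.397) or by upper quartile. LETM2 overlaps FGFR1 on the opposite strand with 17 to 52 counts per library.

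Adding EZH2i to AKTi raised 6 of the 8 genes and lowered 0, where 32.1% of all genes were called higher and 32.1% lower, and the median log2 change of the 8 was 0.80. EGFR and FGFR1 were the 2 not called. Adding AKTi to EZH2i raised 5 (ERBB3, EGFR, INSR, IGF1R and IRS1) and lowered FGFR1, where 21.1% were called higher and 25.7% lower, with a median of 0.49. Compared directly, EZH2i stood above AKTi in 5 genes and below in 3, where 25.4% of all genes were called higher and 25.1% lower. Higher with EZH2i were ERBB2 (log2 difference 0.74, edgeR adjusted p = 4.1e-14), ERBB3 (0.20, adjusted p = 9.3e-04), FGFR1 (0.46, adjusted p = 0.0051), MET (1.01, adjusted p = 0.018) and IGF1R (0.18, adjusted p = 0.027), the last with overlapping libraries. The IGF1R call was lost in 6 of 19 alternative settings, that of MET in 3 of 18 and that of FGFR1 in 1 of 19. Lower with EZH2i than with AKTi were INSR (-0.38, adjusted p = 6.6e-05), IRS1 (-0.58, adjusted p = 9.5e-07) and EGFR (-0.35, adjusted p = 3.0e-06). ERBB2 thus stood higher with EZH2i, and INSR and IRS1 with AKTi. Tazemetostat was given for 6 days before day 0 and for the 24 hours after it, and ipatasertib for those 24 hours only. Agent and time of exposure therefore cannot be told apart in this comparison.

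**Figure D2:**
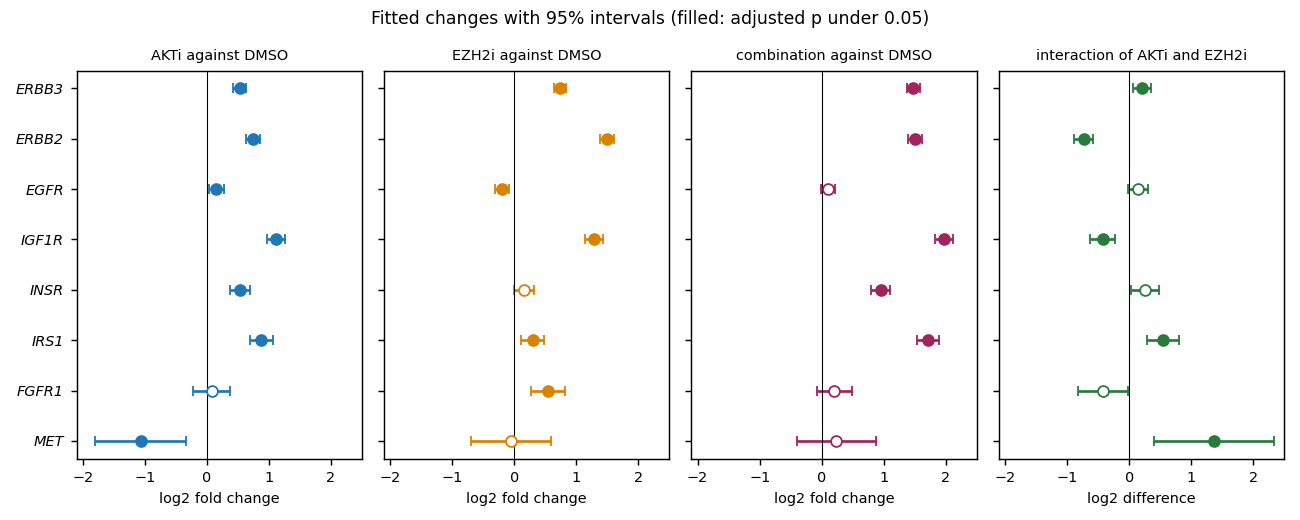
Fitted log2 fold changes of the 8 genes against DMSO with 95% intervals, and the interaction (combination minus AKTi minus EZH2i plus DMSO); filled points have an adjusted p under 0.05. IRS1, MET and ERBB3 lie right of 0 in the interaction panel and ERBB2 and IGF1R left of it, while the interval of MET is the widest.

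The interaction, the log2 effect of AKTi with EZH2i minus its effect without, tested whether the log2 effects of the single agents added. Each sum below is of log2 effects, so that folds are multiplied, and sums of CPM were not tested. ERBB2 fell short of the sum by 0.74 on the log2 scale (interaction -0.74, SE 0.077, edgeR adjusted p = 1.9e-09): AKTi moved ERBB2 by 0.75 without EZH2i and by 0.01 with it. IGF1R also fell short of the sum (-0.43, SE 0.097, adjusted p = 8.0e-04). IRS1 exceeded the sum (0.55, SE 0.13, adjusted p = 8.5e-04), since AKTi moved it by 0.87 without EZH2i and by 1.42 with it. ERBB3 (0.21, adjusted p = 0.028) and MET (1.36, adjusted p = 0.028) also exceeded the sum, and each of these calls was lost in 5 alternative settings. EGFR (0.14, adjusted p = 0.20), INSR (0.26, interval 0.036 to 0.47, adjusted p = 0.075) and FGFR1 (-0.42, interval -0.82 to -0.017, adjusted p = 0.12) were not called. In all 3 of the 8 were called higher and 2 lower, where 10.7% of all genes were called higher and 17.5% lower. The calls for ERBB2, IGF1R and IRS1 held in each of the 18 alternative settings run.

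Levels can be compared between genes only per length, so they are given as CPM divided by the deposited gene length in kilobases (RPKM, mean ± SD, n = 3). In DMSO the order was ERBB3 (19.6 ± 0.401), EGFR (13.2 ± 0.382), ERBB2 (10.5 ± 0.425), INSR (2.73 ± 0.0715), IGF1R (2.36 ± 0.180), IRS1 (2.34 ± 0.370), FGFR1 (0.596 ± 0.0565) and MET (0.274 ± 0.0588). The 3 ERBB receptors thus stood above the insulin and IGF axis in DMSO, and IGF1R and IRS1 did not differ beyond their spread. With AKTi the order became ERBB3 (28.3 ± 0.363), ERBB2 (17.6 ± 0.535), EGFR (14.7 ± 0.903), IGF1R (5.08 ± 0.342), IRS1 (4.33 ± 0.187), INSR (3.97 ± 0.0796), FGFR1 (0.629 ± 0.102) and MET (0.131 ± 0.0484). On this scale ERBB2 had passed EGFR, and IGF1R and IRS1 had passed INSR. Without the length EGFR was at 184 CPM and ERBB2 at 182 CPM with AKTi, and IGF1R was above INSR already in DMSO, so of these mean orders only the passing of INSR by IRS1 did not rest on the deposited lengths. That margin was small without the length, at 43.1 CPM for IRS1 and 41.4 CPM for INSR with AKTi. The ranges of the 2 genes overlapped, although IRS1 was the higher within each library.

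With EZH2i the per-length order was ERBB3 (32.6 ± 1.00), ERBB2 (29.5 ± 0.959), EGFR (11.5 ± 0.257), IGF1R (5.74 ± 0.364), INSR (3.04 ± 0.189), IRS1 (2.91 ± 0.296), FGFR1 (0.868 ± 0.0127) and MET (0.264 ± 0.0647). Here INSR and IRS1 did not differ beyond their spread. With the combination the per-length order was ERBB3 (54.3 ± 1.01), ERBB2 (29.7 ± 1.41), EGFR (14.2 ± 0.815), IGF1R (9.22 ± 0.250), IRS1 (7.77 ± 0.300), INSR (5.27 ± 0.269), FGFR1 (0.684 ± 0.0293) and MET (0.323 ± 0.0544). ERBB3 therefore led in every arm, and FGFR1 and MET stood last in every arm. The top place of ERBB3 with EZH2i depends on the length, since without it ERBB2 had 304 CPM and ERBB3 294 CPM.

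The make-up of the receptor set changed with the arms. ERBB2 per ERBB3, on the per-length scale, was 0.518, 0.549 and 0.542 in DMSO, 0.592, 0.639 and 0.637 with AKTi, 0.970, 0.889 and 0.862 with EZH2i, and 0.550, 0.568 and 0.523 with the combination. EZH2i alone brought ERBB2 near to ERBB3, and the combination libraries overlapped those of DMSO and lay below those of AKTi. EGFR per ERBB2 was 1.26 ± 0.0449 in DMSO, 0.834 ± 0.0557 with AKTi, 0.391 ± 0.0164 with EZH2i and 0.476 ± 0.00714 with the combination (mean ± SD, n = 3). IGF1R per INSR was 0.866 ± 0.0842 in DMSO, 1.28 ± 0.0624 with AKTi, 1.89 ± 0.217 with EZH2i and 1.75 ± 0.105 with the combination. INSR was thus the more abundant of the 2 insulin family receptors in DMSO and IGF1R in every treated arm, an order in DMSO that turned to 1.16 in favor of IGF1R when the length was not used. The summed level of the 8 genes rose from 545 ± 9.41 CPM in DMSO to 787 ± 18.5 with AKTi, 898 ± 2.61 with EZH2i and 1248 ± 28.9 with the combination.

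**Figure D3:**
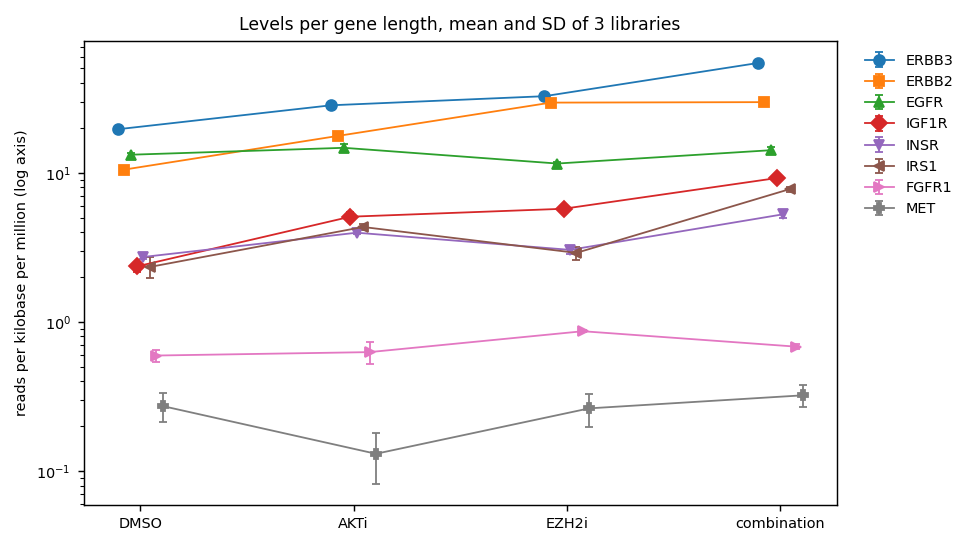
Level of the 8 genes per gene length in each arm, in RPKM on a log axis, with points for the mean and bars for the SD of 3 libraries. ERBB3 is on top in each arm, rising from 19.6 to 54.3, and MET is at the bottom in each arm, between 0.131 and 0.323.

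Across the 12 libraries the genes fell into patterns, described here by Pearson's r of log2 CPM. These libraries share 4 arms, so any gene with the same order of arm means has a high r, and no p is given. INSR and IRS1 were the closest pair (r = 0.986), followed by ERBB3 with IGF1R (0.962) and ERBB2 with IGF1R (0.916), while EGFR and FGFR1 ran most in opposite directions (-0.552). Other protein-coding genes were compared if their mean log2 CPM was at least 1, and they were not matched to the level of each gene. This left 11366 candidates, or 11367 for MET. Those most like ERBB2 were CLSTN1 (0.999), CAPN1 (0.998) and SDC3 (0.996), and 497 genes had an r over 0.95. Those most like ERBB3 were ABCC4 (0.996), PMS2 (0.995) and DSTYK (0.994), with 464 genes over 0.95, and those most like IGF1R were SLC30A4 (0.994), LRBA (0.992) and BMPR2 (0.991), with 359. The pattern of INSR was shared by few genes, 33 over 0.95, led by PMM1 (0.987), IRS1 (0.986) and ADCY9 (0.981). That of IRS1 was shared by 53, led by INSR (0.986), BBC3 (0.985) and PMM1 (0.983). No gene exceeded 0.95 for EGFR, whose nearest were LPAR3 (0.911), PELI3 (0.903) and CIZ1 (0.902), for FGFR1, nearest ATP6V1D (0.916), DCUN1D3 (0.911) and GPRC5B (0.902), or for MET, nearest ASB8 (0.912), PLEKHF2 (0.896) and PTGR1 (0.894).

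Of the 4 FOXO factors, through which AKT is known to act on receptor transcription, FOXO3 and FOXO4 rose in every treated arm. FOXO3 was at 60.2, 72.2 and 76.1 CPM in DMSO, 120, 132 and 122 with AKTi, 316, 305 and 314 with EZH2i, and 544, 524 and 538 with the combination. Its arms did not overlap, and its order of arms was that of ERBB3. The arms of FOXO4 had the same order without overlap, and a link of either to ERBB3 was not tested. FOXO3 rose by log2 fold changes of 0.84 with AKTi (edgeR adjusted p = 3.8e-13), 2.16 with EZH2i (adjusted p = 7.2e-26) and 2.94 with the combination (adjusted p = 1.8e-30). FOXO4 rose by 0.98, 1.21 and 2.25 in the same comparisons (adjusted p = 4.2e-10, 1.8e-13 and 3.5e-22). FOXO1 was called with EZH2i (1.53, adjusted p = 1.2e-10) and the combination (2.40, adjusted p = 1.1e-16) and not with AKTi (0.35, adjusted p = 0.12). FOXO6 was called only in the combination, where it was lower (-0.49, adjusted p = 0.019), a call lost when libraries were scaled by size only. No FOXO factor was called in the interaction, where FOXO3 had -0.06 (adjusted p = 0.65) and FOXO4 0.06 (adjusted p = 0.79). AKT controls FOXO proteins by phosphorylation, which these libraries do not measure.

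IRS2, the close relative of IRS1 and a gene known to be activated by FOXO factors, changed by more than any of the 8 with AKTi and with the combination. It had 1.41, 1.84 and 1.92 CPM in DMSO, 10.2, 14.0 and 13.2 with AKTi, 4.75, 4.03 and 5.37 with EZH2i, and 43.5, 45.4 and 43.0 with the combination. No arms of IRS2 overlapped, and AKTi stood above EZH2i, as for IRS1 and INSR. IRS2 rose by log2 fold changes of 2.84 with AKTi (SE 0.17, edgeR adjusted p = 3.6e-16), 1.44 with EZH2i (SE 0.19, adjusted p = 2.5e-08) and 4.65 with the combination (SE 0.15, adjusted p = 2.0e-25). Unlike IRS1, IRS2 was not called in the interaction (0.37, adjusted p = 0.25), and whether the interactions of IRS1 and IRS2 differ was not tested.

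**Figure D4:**
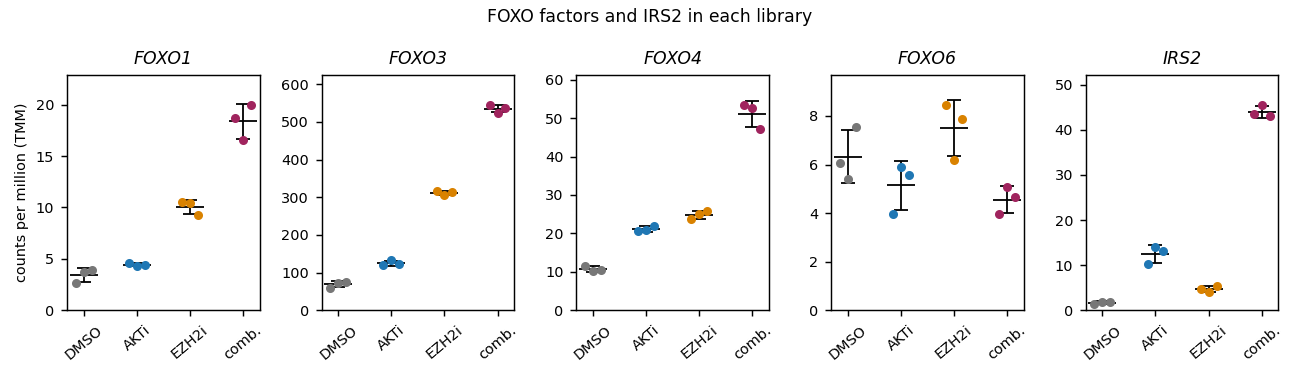
Level of the 4 FOXO factors and IRS2 in every library, in TMM-scaled CPM on linear axes that start at 0, with bars for the mean and SD of 3 libraries per arm. FOXO1, FOXO3, FOXO4 and IRS2 are highest in the combination, where FOXO3 reaches 524 to 544 and IRS2 43.0 to 45.4, and FOXO6 is at 3 to 9 in every arm.

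The other genes of the pathway were taken from 4 further lists. Of 51 other receptor tyrosine kinases 32 could be tested, and with AKTi 8 were higher and 1 lower, beside 20.6% of all genes called higher and 21.9% lower, with a median log2 fold change of 0.18. AATK, a kinase of neurons, had the largest called increase (1.23), followed by the Eph receptor EPHA10 (1.01), and EPHB3 was lower (-0.27). With EZH2i 24 of the 32 were higher and 2 lower, beside 32.6% of all genes called higher and 31.5% lower, with a median of 0.68. EPHA5, an ephrin receptor of the nervous system, went from 8, 12 and 6 counts to 191, 227 and 296 (4.61), and EPHA7 went from 0, 1 and 0 counts in DMSO to 12, 10 and 13. EPHA2 (-1.08) and TYRO3 (-0.53), a receptor of GAS6, fell. With the combination 21 were higher and 4 lower, beside 38.0% and 35.2% of all genes. FLT3, a cytokine receptor of blood progenitors, went from 3, 0 and 0 counts to 36, 25 and 20, EPHA7 to 14, 3 and 14, and EPHA2 (-1.72) and TYRO3 (-1.19) again were lower. ERBB4, the remaining ERBB receptor, had 0 to 3 counts in every library and was not tested.

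Ligands of the 7 receptors or of their families were mostly scarce, and 8 of 33 could be tested. With AKTi 1 of the 8 was higher and 3 lower (all genes 20.6% and 21.9%), with EZH2i 3 and 2 (32.6% and 31.5%), and with the combination 4 and 2 (38.0% and 35.2%). TGFA, which encodes an EGFR ligand, was at 1.65 ± 0.269 CPM in DMSO, 2.59 ± 0.0788 with AKTi, 10.0 ± 0.465 with EZH2i and 10.3 ± 1.74 with the combination (mean ± SD, n = 3), so it rose by log2 fold changes of 0.64 with AKTi and 2.63 with the combination. BTC (betacellulin) went from 0, 0 and 4 counts in DMSO to 9, 11 and 13 with EZH2i and 24, 49 and 26 with the combination. EPGN (epigen), another EGFR ligand, moved in opposite directions, from 12, 17 and 12 counts in DMSO to 4, 0 and 1 with AKTi and to 94, 112 and 93 with EZH2i, and was lower than DMSO with the combination (-1.68). IGF1 fell with EZH2i (-1.60) and the combination (-1.24). FGF21, a metabolic hormone of the FGF family, fell from 22, 21 and 38 counts in DMSO to 3, 3 and 1 with AKTi and 3, 3 and 12 with EZH2i. Among the neuregulins, NRG1 and NRG2, the ligands of ERBB3, and NRG3 had 0 to 7 counts per library and NRG4 had 0 to 23. IGF2 and EREG had 0 or 1, and HGF, the ligand of MET, had 0 counts in all 12 libraries. A count of 0 in 1 library taken alone allows an expected count of up to 3. Growth factors in the medium are not seen in these counts.

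Adaptors and PI3K subunits carry the signal from the receptors inward, and 25 of 26 could be tested. With AKTi 11 were higher and 4 lower (median log2 fold change 0.27), with EZH2i 16 and 5 (0.54), and with the combination 17 and 6 (1.06), beside 20.6%, 32.6% and 38.0% of all genes called higher and 21.9%, 31.5% and 35.2% lower. The adaptor SHC2 went from 0, 1 and 2 counts in DMSO to 17, 11 and 23 with AKTi, 93, 77 and 127 with EZH2i, and 206, 206 and 152 with the combination. GAB3, a docking protein of blood cells, went from 0, 1 and 0 counts to 29, 42 and 54 with EZH2i and 93, 105 and 78 with the combination. Among those that fell were FRS2 (-0.31), the docking protein of FGF receptors, and CRKL (-0.29) with AKTi, SHC4 (-1.56) and SH2B2 (-0.85) with EZH2i, and SHC4 (-0.98) and the p110β gene PIK3CB (-0.66) with the combination.

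Negative regulators of receptors, with 23 of 25 tested, moved both ways. With AKTi 8 of the 23 were higher and 5 lower, beside 20.6% and 21.9% of all genes (median log2 fold change of the list 0.096). With EZH2i 11 were higher and 5 lower, beside 32.6% and 31.5% (median 0.20), and with the combination 11 and 5, beside 38.0% and 35.2% (median 0.37). SOCS2, a cytokine signaling inhibitor, rose in all 3 comparisons (0.87, 1.66 and 1.89), and GRB10, which binds and inhibits the insulin and IGF receptors, rose by 0.77 with AKTi. The mean level of GRB10 was 224 CPM in DMSO, 382 with AKTi, 393 with EZH2i and 583 with the combination. CBLB, a ubiquitin ligase of receptors, rose with AKTi (0.48), EZH2i (1.23) and the combination (1.77). ERRFI1, which inhibits the EGFR kinase, and SPRED2, an inhibitor of RAS signaling, fell with AKTi (-0.64 and -0.40). PTPN2, a phosphatase of receptors, was lower with AKTi (-0.29), EZH2i (-0.62) and the combination (-0.59). RNF41, a ubiquitin ligase of ERBB3, was lower with AKTi (-0.28) and EZH2i (-0.58). Its mean level was 114 CPM in DMSO and 89.9 with the combination. GRB14 was lower with the combination (-0.93). For these genes the edgeR adjusted p was under 0.05 in each comparison named with a log2 fold change, and other comparisons of them may also have been called. The higher calls with the combination came to 17 when libraries were scaled by size only, where those over all genes went from 6320 to 7574.

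**Figure D5:**
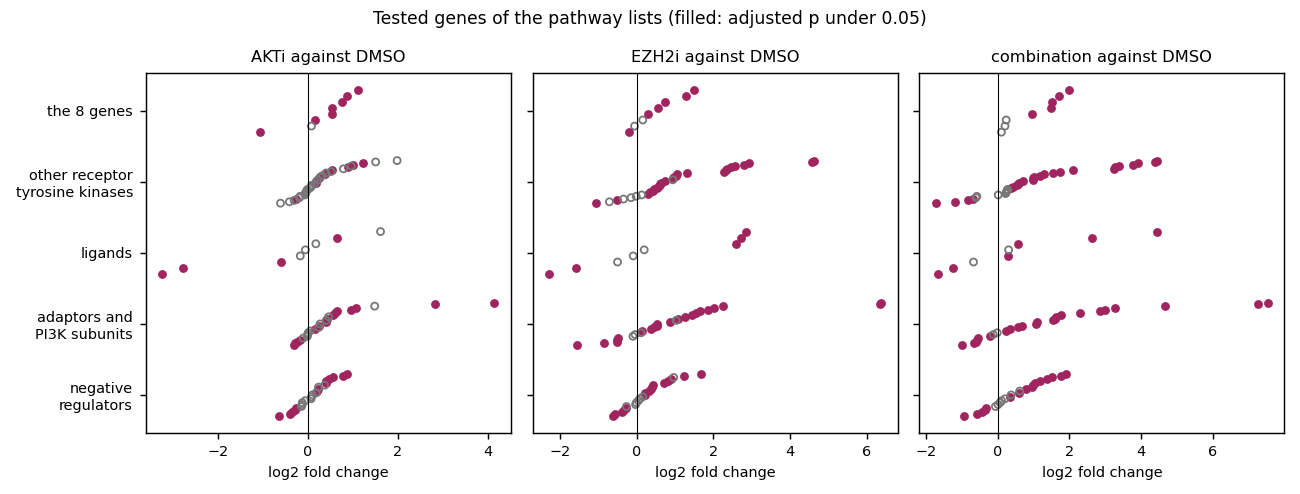
Log2 fold changes against DMSO of every tested gene of the 5 lists, the 8 genes on top, with each point a gene and filled points having an adjusted p under 0.05. With AKTi 6 of the 8 genes and 8 of 32 other receptor kinases are called higher, beside 20.6% of all tested genes. With EZH2i 5 of 8 and 24 of 32 are called higher, beside 32.6% of all tested genes.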

How the data were processed

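PolyA RNA was sequenced from C4.2B cells in 4 arms of 3 libraries. According to the study's methods, the authors aligned reads to hg38 with STAR and counted them on genes with HTSeq. Versions, annotation and strand setting are not given in the sources used here. The deposited values used are raw counts for 58735 genes, with a gene length that belongs to no sample. The authors' size-factor normalized values were not used. Sequencing was on a NextSeq 500 or by Novogene, and no batch could be fitted.

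In R 4.3.3, edgeR 4.0.16 (filterByExpr, minimum count 10, minimum total 15; TMM; glmQLFit and glmQLFTest) was fitted on 16646 genes with a mean for each arm over 12 libraries, and contrasts were adjusted by Benjamini-Hochberg at 0.05. SEs are the log2 fold change over the square root of F, and intervals are 95%. Total counts of 14133755 to 22276417 per library leave counting error large only for genes such as MET. Libraries of 1 arm differed by more than sampling noise. Alternatives were DESeq2 1.42.0, scaling by size or upper quartile, filters of 1 count in all or 10 per library, a fit of the arms compared alone, a replicate block, and leaving out libraries singly. Steps were tested on simulated data in which few genes changed, which cannot test the scaling where many genes change, as here.

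Promoter windows came from a RefSeq table (GRCh38.p14). The genes and lists were chosen with earlier results of these data known. Lists were written from memory. Named genes were the 8, the FOXO factors, up to 2 called genes each way with the largest changes per list and comparison with DMSO, and the 3 most like each of the 8. ERBB4, scarce ligands and genes overlapping the 8 were named outside this rule, after their values were seen. Protein was not analysed here.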

Additional observations from a re-analysis of the deposited data

Results flagged for a closer look

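In 5 of the 8 genes the effect of AKTi differed with and without EZH2i, by the interaction term of edgeR's quasi-likelihood test adjusted over all genes. These were 3 higher and 2 lower, beside 10.7% and 17.5% of all tested genes. The effect of AKTi with EZH2i minus its effect without was -0.74 on the log2 scale for ERBB2 (adjusted p = 1.9e-09) and -0.43 for IGF1R (adjusted p = 8.0e-04). It was 0.55 for IRS1 (adjusted p = 8.5e-04), 0.21 for ERBB3 (adjusted p = 0.028) and 1.36 for MET (adjusted p = 0.028), and the ERBB3 and MET calls were each lost in 5 alternative settings. Each group held 3 libraries, too few to look for a single library far from the others.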

How the results depend on the processing

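No called result of the 8 genes changed direction. Of 672 gene results with 1 library left out, 639 kept their side of the threshold and 33 crossed it, and of 377 under other settings 359 kept it and 18 crossed it. The calls for ERBB2, ERBB3, INSR, IGF1R and IRS1 with AKTi and with the combination against DMSO held in all 19 settings. The 5 higher calls with the combination against DMSO became 7 under both other scalings, which added EGFR and FGFR1. The single lower call with AKTi (MET) became 0 with at least 10 counts in every library, which removes MET, and ran from 0 to 1 with a library left out (0 without DMSO library A or AKTi library C). The single lower call with EZH2i (EGFR) became 0 with library size only and upper quartile, where the lower calls over all genes went from 5249 to 4193 and 4374. The single lower call of the combination against EZH2i (FGFR1) became 0 with DESeq2, library size only, upper quartile and at least 10 counts in every library, and ran from 0 to 1 with a library left out (0 without EZH2i library B or C or combination library B or C). For EZH2i against AKTi the 5 higher calls ran from 2 to 5 (2 without AKTi library C, 3 without EZH2i library C), and the 3 higher interaction calls from 1 to 3 (1 without DMSO library C or combination library A). In the lists, scaling by size or upper quartile took the negative regulators from 5 to 3 lower with EZH2i and from 11 to 17 higher with the combination. These stand beside the shifts over all genes given above. The other receptor kinases lower with AKTi ranged from 0 to 3. The cause of these shifts was not tested. Library letters are not stated to pair the plates. Deviations from arm means correlated at -0.058 to 0.069 between libraries of the same letter and at -0.069 to 0.057 between those of other letters. No shared deviation was seen, but with so few libraries an arm this cannot exclude pairing. A replicate block left 6 of the 8 higher and 1 lower with AKTi and changed none of their other counts of calls. MET, at 8 to 52 counts, is limited by depth.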
